A study of Drosophila melanogaster with 2 samples.

Results

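The miR-92 seed family of Drosophila melanogaster was followed in the small RNAs of mutant and control ovaries. Its members were chosen by name: the clustered hairpins dme-mir-310, dme-mir-311, dme-mir-312 and dme-mir-313, their neighbours dme-mir-991 and dme-mir-992, and the seed relatives dme-mir-92a and dme-mir-92b. The prefix dme is left out below. These are 8 of the 235 hairpins in the deposited miRNA tables, and all 8 were found in both. Hand-dissected ovaries of females aged 3 to 5 days gave 1 library of peloPB60/1, which carries the pelo alleles PB60 and 1, and 1 library of pelo1/+, which carries allele 1 over a normal copy. Allele 1 is thus present in both. The gene pelo encodes a factor that rescues stalled ribosomes and is needed in the female germline. RNA of 18 to 30 nt was sequenced. The miRNA table held 1999224 reads in peloPB60/1 and 1819781 reads in pelo1/+. With 1 library per genotype, each value below compares 2 libraries, the differences have no replicate check, and intervals are 95% intervals that cover counting error only.

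A miRNA is cut from a hairpin precursor and pairs with mRNAs mainly through its seed, a short stretch near its 5′ end, so miRNAs with the same seed can act on overlapping sets of mRNAs. The miR-92 seed is conserved between insects and vertebrates. In flies the mir-310 to mir-313 hairpins are a younger, fast-evolving branch of this family, with described roles in the ovary and at the larval neuromuscular junction. mir-92a and mir-92b are the older branch and are known from neural stem cells. mir-991 and mir-992 belong to the cluster by position and not by seed. The tables count reads per hairpin, so both arms of a hairpin share 1 value, and seed membership was taken from general knowledge.

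In the BDGP6 annotation the cluster lies on the minus strand of chromosome arm 2R, outside any other named gene. Read in the direction of transcription, the order is mir-992, mir-991, mir-2498, mir-313, mir-312, mir-311 and mir-310. mir-92a and mir-92b lie on the plus strand of 3R, within the protein-coding gene jigr1. mir-92a was intronic in the 6 jigr1 transcripts that span it, of 8 annotated. mir-92b fell in the 3′ UTR of 1 jigr1 transcript and in the exon of the noncoding gene lncRNA:CR45917.

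The seed family took a smaller share of the miRNA reads in peloPB60/1. Its 6 hairpins, mir-310 to mir-313 with mir-92a and mir-92b, held 12750 reads or 0.638% of the table in peloPB60/1 (exact binomial interval 0.627% to 0.649%), against 44283 reads or 2.43% in pelo1/+ (2.41% to 2.46%). This was a 3.82-fold lower share (log2 ratio -1.93, interval -1.96 to -1.90). The difference came from the cluster. mir-310 to mir-313 summed to 4228 CPM (counts per 1000000 miRNA reads) in peloPB60/1 and 22341 CPM in pelo1/+, a 5.28-fold lower level (log2 ratio -2.40). The sum of mir-92a and mir-92b was 2149 CPM in peloPB60/1 and 1994 CPM in pelo1/+ (log2 ratio 0.11, interval 0.04 to 0.17). With mir-989, the most abundant hairpin of peloPB60/1, left out of the totals, that log2 ratio was 0.68.

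A hairpin was called higher or lower when its CPM differed at least 2-fold and the interval of the ratio excluded no difference. All 8 members passed the filter of at least 50 reads summed over both libraries. Of these 8, 5 were called lower in peloPB60/1, 1 was called higher and 2 were neither. Among all 108 hairpins past the filter, 31.5% were called lower and 15.7% higher. The median log2 ratio was -1.52 over the members and -0.34 over all 108 hairpins. With a 4-fold size rule 3 members were lower, against 10.2% of all hairpins lower and 7.41% higher. With a 1.5-fold rule 6 members were lower and 2 higher, against 40.7% lower and 23.1% higher among all hairpins.

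**Figure D1:**
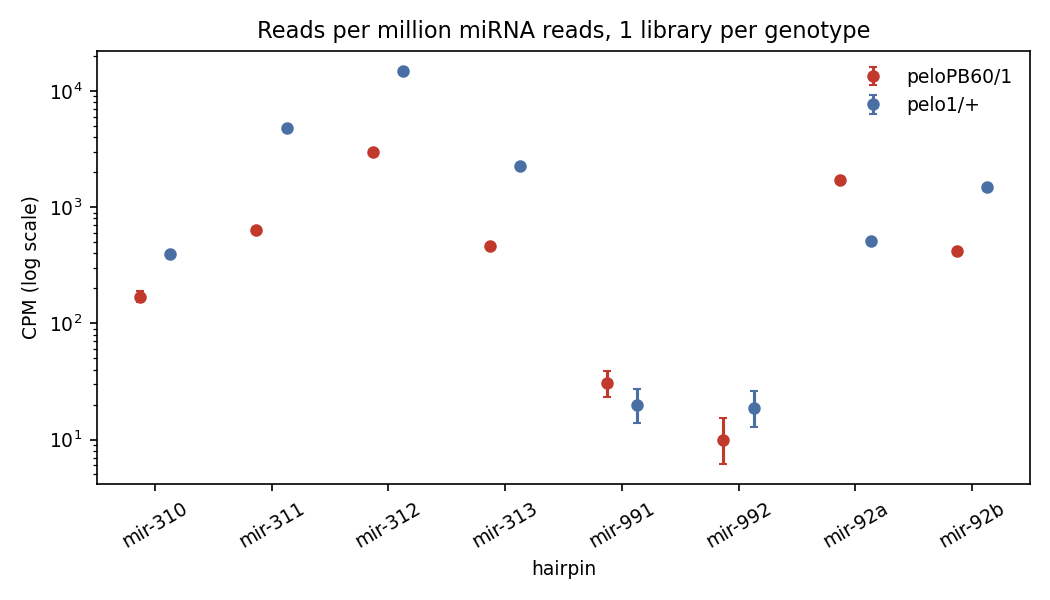
CPM of each of the 8 hairpins on a log scale, 1 point per library, with exact Poisson 95% intervals as bars. peloPB60/1 lies below pelo1/+ for mir-310 to mir-313 and mir-92b, and above it for mir-92a, while the bars of the rare mir-991 and mir-992 overlap between the libraries.

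mir-312 was the most abundant member in both libraries. It had 5922 reads in peloPB60/1 and 27079 reads in pelo1/+, that is 2962 CPM (exact Poisson interval 2887 to 3039) against 14880 CPM (14704 to 15059). It was 5.02-fold lower (log2 ratio -2.33, interval -2.37 to -2.29), and its place among all hairpins by abundance was 28 in peloPB60/1 and 13 in pelo1/+. mir-312 alone made up 65.8% of the CPM difference of the 4 clustered hairpins.

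mir-311 differed most. It had 1271 reads or 636 CPM in peloPB60/1 and 8721 reads or 4792 CPM in pelo1/+, a 7.54-fold lower level (log2 ratio -2.91, interval -3.00 to -2.83). Of the 108 hairpins, 7 had a lower log2 ratio than mir-311. mir-313 had 921 reads or 461 CPM in peloPB60/1 and 4139 reads or 2274 CPM in pelo1/+. Its 4.94-fold lower level (log2 ratio -2.30, interval -2.41 to -2.20) was close to that of mir-312. mir-310, the rarest of the 4, had 339 reads or 169.6 CPM in peloPB60/1 and 716 reads or 393 CPM in pelo1/+. It was 2.32-fold lower (log2 ratio -1.21, interval -1.41 to -1.03), the smallest difference of the 4 and the 1 that lost its call under other scalings. With edgeR's TMM factors its log2 ratio was -0.96, and without mir-989 in the totals it was -0.64.

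The 2 relatives outside the cluster went opposite ways. mir-92a had 3460 reads or 1731 CPM in peloPB60/1 and 930 reads or 511 CPM in pelo1/+, and was 3.39-fold higher (log2 ratio 1.76, interval 1.65 to 1.87). Of the 108 hairpins, 12 had a higher log2 ratio. mir-92b had 837 reads or 419 CPM in peloPB60/1 and 2698 reads or 1483 CPM in pelo1/+, and was 3.54-fold lower (log2 ratio -1.82, interval -1.94 to -1.71). There were 4.13 mir-92a reads per mir-92b read in peloPB60/1 and 0.345 in pelo1/+, an 11.99-fold difference in the ratio (log2 3.58, exact conditional interval 3.43 to 3.74). This ratio does not depend on the scaling of the libraries. The pair's sum does depend on it: it differed 1.08-fold in CPM, and its log2 ratio was 0.68 without mir-989 in the totals. mir-92a held 80.5% of the pair's reads in peloPB60/1 and 25.6% in pelo1/+. How reads matching both hairpins were assigned is not given in the sources used here, and its part in these opposite differences was not tested.

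**Figure D2:**
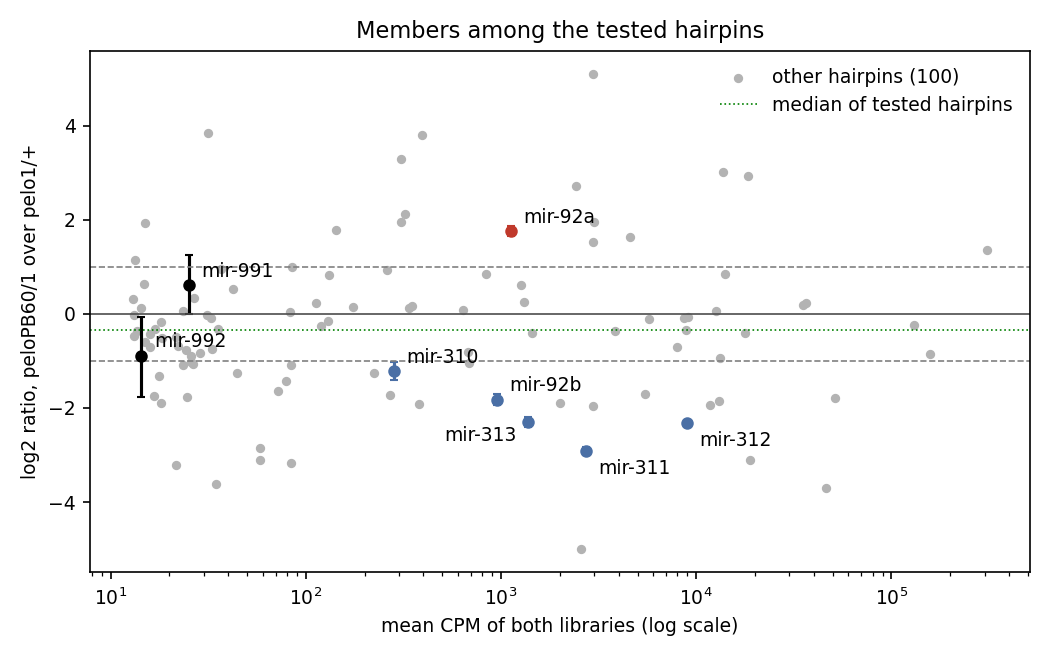
Log2 ratio of peloPB60/1 over pelo1/+ against mean CPM (log scale) for the 108 hairpins with at least 50 summed reads. The 8 members are named and carry exact 95% intervals of the counts, dashed lines mark 2-fold, and the dotted line marks the median of -0.34. mir-310 to mir-313 and mir-92b lie below the lower dashed line and mir-92a above the upper one.

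The cluster neighbours without the seed were rare and were not called. mir-991 had 61 reads or 30.5 CPM in peloPB60/1 and 36 reads or 19.8 CPM in pelo1/+ (log2 ratio 0.62, interval 0.01 to 1.26). mir-992 had 20 reads in peloPB60/1 and 34 reads in pelo1/+ (log2 ratio -0.89, interval -1.78 to -0.06). Neither reached 2-fold, although mir-991 did, at a log2 ratio of 1.19, once the totals excluded mir-989. At these depths each interval reached past 2-fold on 1 side. A further hairpin of the cluster outside the chosen members, mir-2498, had 5 reads in peloPB60/1 and 18 in pelo1/+, under the filter (log2 ratio -1.89, interval -3.77 to -0.50). Together mir-991, mir-992 and mir-2498 had 86 reads in peloPB60/1 and 88 in pelo1/+ (log2 ratio -0.17, interval -0.61 to 0.28). This sum rested on mir-991. Without it, mir-992 and mir-2498 had 25 reads in peloPB60/1 and 52 in pelo1/+ (log2 ratio -1.18, interval -1.94 to -0.48). That interval includes the value of mir-310 and lies above those of mir-311, mir-312 and mir-313. mir-991 and mir-992 differed from each other beyond counting error, with 3.05 mir-991 reads per mir-992 read in peloPB60/1 and 1.06 in pelo1/+ (log2 of the ratio of ratios 1.53, interval 0.45 to 2.61). The rare hairpins lie upstream of the abundant ones in the transcription order given above.

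Ratios between hairpins of the cluster were compared within each library, which removes any scaling factor. mir-312 and mir-313 kept their proportion, with 6.43 mir-312 reads per mir-313 read in peloPB60/1 and 6.542 in pelo1/+ (log2 of the ratio of ratios -0.03, interval -0.14 to 0.09). The other pairs shifted beyond counting error. There were 4.66 mir-312 reads per mir-311 read in peloPB60/1 and 3.11 in pelo1/+. There were 17.5 mir-312 reads per mir-310 read in peloPB60/1 and 37.8 in pelo1/+. The widest shift was between mir-311 and mir-310, at 3.75 in peloPB60/1 and 12.2 in pelo1/+, a 3.25-fold lower ratio (log2 -1.70, interval -1.91 to -1.49). As shares of the 4 hairpins, mir-312 held 70.1% in peloPB60/1 and 66.6% in pelo1/+, mir-311 held 15.0% and 21.5%, mir-313 held 10.9% and 10.2%, and mir-310 held 4.01% and 1.76%, in the same order of libraries.

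Within the 6 hairpins that share the seed, the make-up changed more. mir-92a supplied 27.1% of the family's reads in peloPB60/1 (exact binomial interval 26.4% to 27.9%) and 2.10% in pelo1/+ (1.97% to 2.24%). mir-312 supplied 46.4% in peloPB60/1 and 61.1% in pelo1/+, and mir-311 supplied 9.97% in peloPB60/1 and 19.7% in pelo1/+. mir-92b, although its level was lower, supplied a like share of 6.56% in peloPB60/1 and 6.09% in pelo1/+. mir-92a was thus the second most abundant family member in peloPB60/1 and the fifth in pelo1/+.

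**Figure D3:**
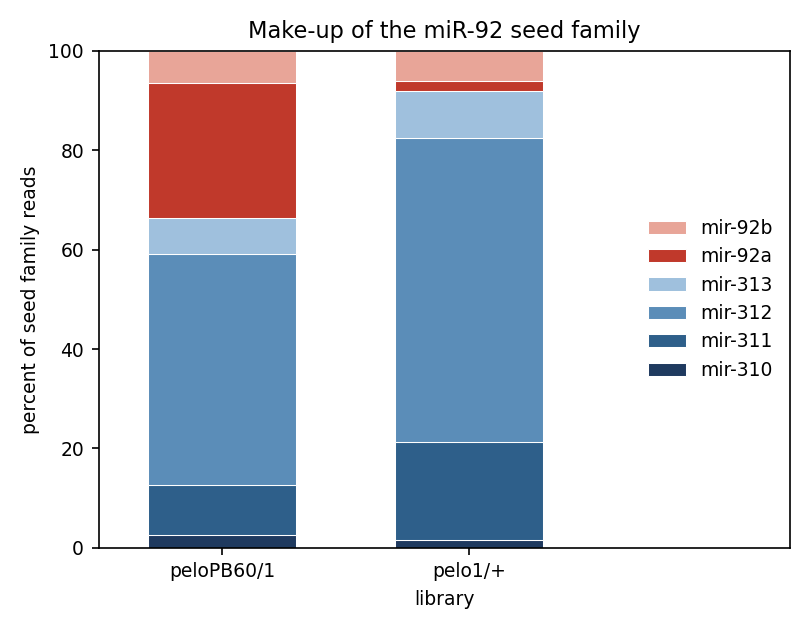
Percent of the seed family's reads from each of its 6 hairpins, 1 stacked bar per library, based on 12750 reads in peloPB60/1 and 44283 reads in pelo1/+. The mir-92a block fills 27.1% in peloPB60/1 and 2.10% in pelo1/+, and the mir-311 and mir-312 blocks are smaller in peloPB60/1.

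The order of the members by level therefore differed. In peloPB60/1 it was mir-312, mir-92a, mir-311, mir-313, mir-92b, mir-310, mir-991 and mir-992. There the intervals of mir-313 (431 to 491 CPM) and mir-92b (391 to 448 CPM) overlapped, and no other neighbours did. In pelo1/+ it was mir-312, mir-311, mir-313, mir-92b, mir-92a, mir-310, mir-991 and mir-992, and only the intervals of mir-991 and mir-992 overlapped. These orders compare reads per hairpin, and hairpins can differ in how well they are ligated and sequenced.

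Both loci were set beside the other genomic clusters. A cluster was a run of hairpins on 1 strand of BDGP6 with gaps of no more than 10000 bp, and 16 clusters had at least 2 hairpins past the filter. The log2 ratios of mir-310 to mir-313, which are a part of their cluster, spanned 1.70, and 7 clusters taken whole spanned less. With mir-991 and mir-992 included the cluster spanned 3.53, from mir-311 to mir-991, place 12 of 16 counted from the smallest span. mir-92a and mir-92b spanned 3.58, and 3 clusters spanned more. These were mir-994 with mir-318 at 3.64, the cluster from mir-317 to mir-34 at 4.99, and the cluster from mir-9c to mir-9b at 7.92. Unequal differences within a cluster were thus not particular to these loci.

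**Figure D4:**
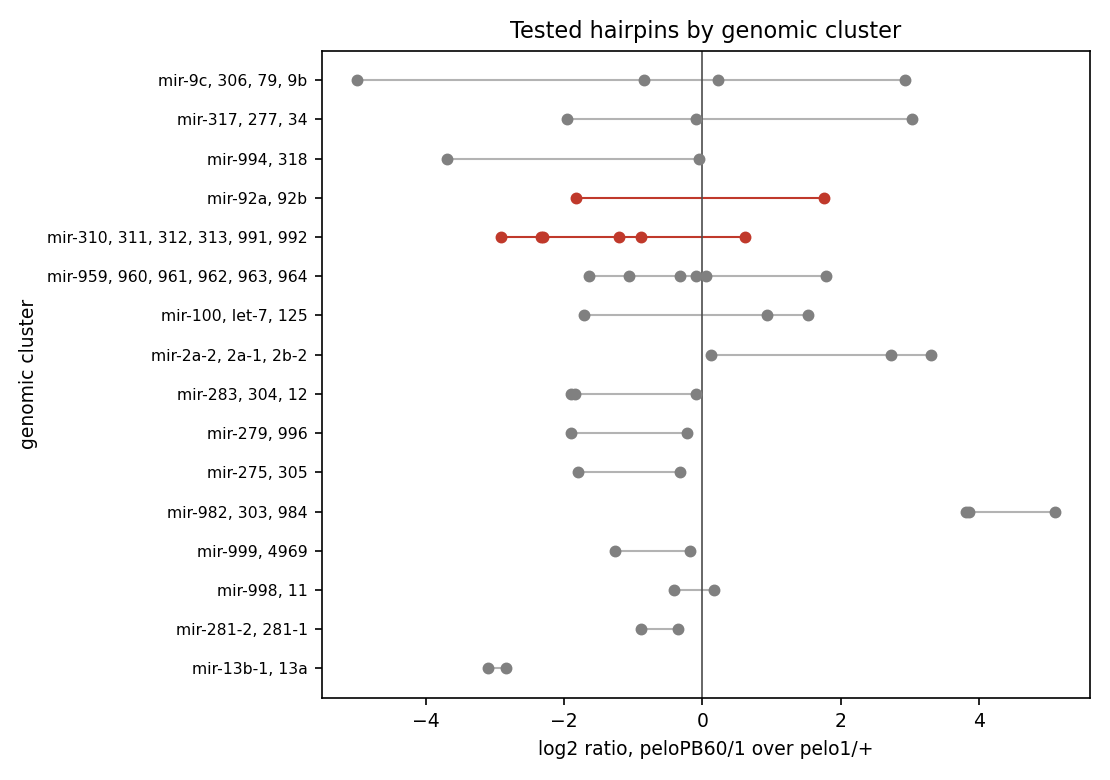
Log2 ratio of peloPB60/1 over pelo1/+ for each hairpin past the filter (points) in 16 genomic clusters (rows, sorted by their span, with a line from lowest to highest member). The 2 loci described here are red and span 3.53 and 3.58, and mir-310 to mir-313 are the 4 leftmost points of their row.

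The hairpins outside the members whose log2 ratio came closest to that of the summed mir-310 to mir-313 (-2.40) were mir-277, mir-13a, bantam and mir-279, compared over 2 libraries only. bantam, which promotes growth and is needed in germline stem cells, was the most abundant of these, at 4873 CPM in peloPB60/1 and 18738 CPM in pelo1/+ (log2 ratio -1.94). mir-277 had 1207 CPM in peloPB60/1 and 4712 CPM in pelo1/+ (-1.96). mir-279 had 159.6 CPM in peloPB60/1 and 598.4 CPM in pelo1/+ (-1.91), and mir-13a had 14.0 CPM in peloPB60/1 and 102.2 CPM in pelo1/+ (-2.85). Even the nearest, mir-277, was 0.44 away from the summed cluster. The intervals of mir-277 (-2.03 to -1.90), bantam (-1.98 to -1.91) and mir-279 (-2.09 to -1.73) all lay above -2.40. That of mir-13a, which had 28 reads in peloPB60/1, ran from -3.50 to -2.29.

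Of 7 listed germline and ovary miRNAs outside the members, 2 were lower, 2 higher and 3 neither, with a median log2 ratio of 0.06. Among all 108 hairpins, 31.5% were lower and 15.7% higher. The 4 listed ovary markers, mir-989, mir-318, mir-994 and mir-184, held 49.6% of the reads in peloPB60/1 and 30.1% in pelo1/+. Without mir-989 the other 3 held 5.28% in peloPB60/1 and 12.7% in pelo1/+. Of these only mir-994 was called lower, at 0.660% in peloPB60/1 and 8.55% in pelo1/+. mir-318 held 0.891% in peloPB60/1 and 0.925% in pelo1/+, and mir-184 held 3.72% and 3.28%, in the same order. Both were called neither. The muscle marker mir-1 held 0.690% of the reads in peloPB60/1 and 0.222% in pelo1/+, while the other, mir-133, had 12 reads in each library. The 14 testis markers held 0.0401% in peloPB60/1 and 0.0340% in pelo1/+. Of their reads, mir-962, called higher, had 443 of 801 in peloPB60/1 and 117 of 619 in pelo1/+. mir-960 and mir-963 were called lower. The 4 neuronal markers, all under the filter, had 88 reads in peloPB60/1 and 48 in pelo1/+, of which mir-124 had 36 in peloPB60/1 and 11 in pelo1/+. mir-1 was called higher in peloPB60/1, as was mir-92a, and the part of muscle or neuronal RNA in its level was not tested. In whole ovaries, fewer cells that make a miRNA and less of it per cell cannot be told apart.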

How the data were processed

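Each library came with a miRNA and a piRNA table. The deposited values are raw read counts per hairpin or repeat, with no normalization, per the file contents. The submitters' processing notes name Bowtie 0.12.7 and BDGP5 with no role. The hairpin reference, mismatches allowed, handling of reads with several matches and adapter trimming were not given in the sources used here. Miscounting between hairpins of like sequence would move reads among members.

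Counts were divided by the miRNA table total (CPM). Log2 ratios of peloPB60/1 over pelo1/+ used 0.5 added counts, and their intervals the exact conditional (Clopper-Pearson) method on unmodified counts. Ratios of ratios took the exact conditional interval of the odds ratio (scipy 1.17.1). No p-value was computed. Alternatives covered other scalings (edgeR 4.0.16 TMM and DESeq2 1.42.0 factors among them), filters, size rules and sums with members left out. Simulated Poisson counts were used to test the computation. The members, lists and rules were chosen with earlier results of these data known. The text names all members, the 4 hairpins closest to the summed cluster, cluster neighbours and hairpins a result turns on. Of 235 hairpins, 232 were matched to the Ensembl BDGP6 annotation. As that build differs from BDGP5, no coordinates are printed. A planned comparison of mature sequences was not run, and the piRNA tables served for a scaling total only.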

Additional observations from a re-analysis of the deposited data

How the results depend on the processing

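No paired analysis was possible because there was 1 library per genotype, and no library could be left out. Every hairpin shifts by the same log2 amount with scaling: by 0.17 with the total of both tables, 0.25 with TMM, 0.23 with median of ratios, -0.01 with upper quartiles, 0.57 without mir-989 and 0.23 without the 10 most abundant hairpins. In that order, apart from upper quartiles, the log2 ratio of summed mir-310 to mir-313 was -2.23, -2.15, -2.18, -1.83 and -2.17, that of the seed family -1.76, -1.68, -1.71, -1.36 and -1.70, and that of mir-92a plus mir-92b 0.28, 0.36, 0.33, 0.68 and 0.34. The cluster was at -2.56 without mir-312 and -2.29 without mir-311. The family was at -1.47 without mir-312, -2.36 without mir-92a, -1.77 without mir-311 and -1.90 without mir-313. The sum of the pair and the ovary markers without mir-989 were chosen after seeing the data. So were the sum of mir-991, mir-992 and mir-2498, that sum without mir-991, and the sums without mir-310, mir-311 or mir-313. Under all of these the cluster and the family stayed over 2-fold lower.

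Each member kept its sign under 6 scalings and 1 added count. mir-310 was called lower in 3 of these 7 settings, and mir-991 was called higher, at 1.19, without mir-989. Without mir-989, 2 members and 27 hairpins were higher and 4 members and 24 hairpins lower. With the total of both tables the split over all hairpins was 23 higher and 29 lower. With a 1.5-fold size rule 2 members were higher and 6 lower, and with a 4-fold rule 0 members were higher and 3 lower, with 8 and 11 hairpins. The sum of mir-991, mir-992 and mir-2498 changed sign, up to 0.40 without mir-989, and was -1.18 without mir-991. Depth limits mir-991 and mir-992, at 20 to 61 reads in either library.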
